A study of Mus musculus with 3 samples.

Results

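Mesothelial cells of the mouse uterus at pregnancy day 7.5 were described in a single-cell RNA-seq library. The members were chosen by measured counts: each barcode showed 500 or more genes, and mitochondrial genes gave no more than 20% of its unique molecular identifiers (UMIs, the counted transcript molecules). They also had at least 3 UMIs summed over Msln, Upk3b, Lrrn4 and Upk1b, fewer than 3 summed over the epithelial genes Epcam, Cdh1, Cldn3 and Cldn4, and at most 1 UMI of Ptprc, the pan-leukocyte gene that encodes CD45. The rule found 80 members among 1825 barcodes that passed the same quality filter, out of 2775 barcodes in all. That share was 4.38% of the passing barcodes (exact binomial 95% interval, 3.49 to 5.43%). It is a share of the barcodes recovered after trypsin digestion, not of the tissue.

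The study digested whole uteri of mated females to single cells for droplet sequencing with the Chromium 3' v3.1 chemistry. Females had been kept with littermates to an age of 8 weeks, were mated to stud males and were dissected at day 7.5. One library is analysed here; its labels give no genotype, strain, number of animals or treatment beyond mating. A library labelled Prl8a2icre/+ Sun1-GFPLsL/+ and one labelled Sun1-GFPLsL/+ were not analysed here. All members and all cells they are set against therefore come from the same library, no value has a biological replicate, and no p-value is given.

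Mesothelium is the sheet of flat cells that lines the body cavities and covers the organs within them, and on the uterus it forms the outer, peritoneal surface. It is an epithelium of mesodermal origin: its cells carry keratins, microvilli and a glycocalyx, yet also genes of connective tissue such as Wt1 and collagens. Its known tasks are a non-adhesive surface, fluid and solute exchange, control of fibrin deposits and the supply of growth factors and matrix to the tissue beneath.

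The members held 462355 UMIs in all, with a median of 5447 UMIs per cell (1552 to 12647), a median of 2455.5 detected genes and a median mitochondrial share of 3.49%. The 1745 other barcodes that passed held 14247564 UMIs with a median of 4451. Comparison classes were cut by marker sums of the same kind. Each of their gates allowed fewer than 3 UMIs summed over Msln, Upk3b, Lrrn4 and Upk1b. All but the epithelium gate also allowed fewer than 3 epithelial UMIs, and all but the leukocyte gate at most 1 UMI of Ptprc. The stroma gate further asked for fewer than 3 endothelial UMIs and fewer than 3 of the mural genes Rgs5 and Myh11. The stroma gate (462 barcodes) asked for at least 3 UMIs of Pdgfra, Col1a1, Col1a2 and Col6a3, and the epithelium gate (277) for at least 3 of Epcam, Cdh1, Cldn3 and Cldn4. The endothelium gate (81) asked for at least 3 UMIs of Pecam1, Cdh5, Kdr and Emcn, and the leukocyte gate (567) for at least 2 of Ptprc; 358 barcodes were left unclassed. Levels are UMIs of a gene per 1000000 UMIs of the class (CPM), with an exact Poisson 95% interval. A ratio between classes has an exact 95% interval from the same sums, and both intervals cover counting error only. A gene was called higher or lower when both sides together held at least 50 UMIs, the ratio was at least 2-fold and its interval excluded 1.

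The 4 gate genes chose the members, so their levels are a description. The comparison gates allowed fewer than 3 UMIs of these genes per barcode, so their low levels there are set by the gates too. Upk3b, which encodes a uroplakin-family membrane protein, is on chromosome 5 (136038496 to 136046487, + strand, mm10). Members held 0 to 42 Upk3b UMIs with a median of 8.5, and 78 of the 80 had at least 1. Its level was 1836 CPM (1715 to 1964) in members, against 4.35 CPM in all other barcodes and 2.29 CPM in the stroma gate. Lrrn4, a leucine-rich repeat membrane protein gene (chromosome 2, 132868305 to 132880891, - strand), had 776 CPM in members and 0 UMIs in the stroma gate. Msln, which encodes the surface glycoprotein mesothelin (chromosome 17, 25748613 to 25754378, - strand), had 597 CPM in members, against 0.916 CPM in the stroma gate and 12.9 CPM in the epithelium gate. Upk1b, a uroplakin tetraspanin gene (chromosome 16, 38773184 to 38800328, - strand), had 298 CPM in members and 1.37 CPM in the stroma gate. All 4 genes had a UMI in 47 members, 3 of the 4 in 28, 2 in 4 and a single one in 1.

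The other 3 genes given as markers, which the gate did not use, were high in the same cells. They were given with earlier results of these data known, so their levels are a description too. Decorin (Dcn), a small leucine-rich proteoglycan that binds collagen fibrils, is on chromosome 10 (97479609 to 97518143, + strand). Every member had Dcn UMIs, with 2 in the lowest, 53.5 at the median and 219 in the highest cell. Dcn stood at 11182 CPM in members, against 318 CPM in the stroma gate, 101 CPM in the endothelium gate and 16.5 CPM in the epithelium gate. The ratio was 117 (110.4 to 125) to all other barcodes and 35.2 (32.5 to 38.1) to the stroma gate, a class in which Dcn is more often used as a marker. Rspo1, a secreted amplifier of WNT signalling (chromosome 4, 124986430 to 125009099, + strand), had a UMI in 56 members and 0, 1 and 9 UMIs in the lowest, median and highest cell. Its level was 281 CPM in members, against 4.12 CPM in the stroma gate and 0.480 CPM in the epithelium gate. Fgf1, a fibroblast growth factor, had a UMI in 63 members and reached 446 CPM, against 0.916 CPM in the stroma gate and 9.03 CPM in the endothelium gate.

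**Figure D1:**
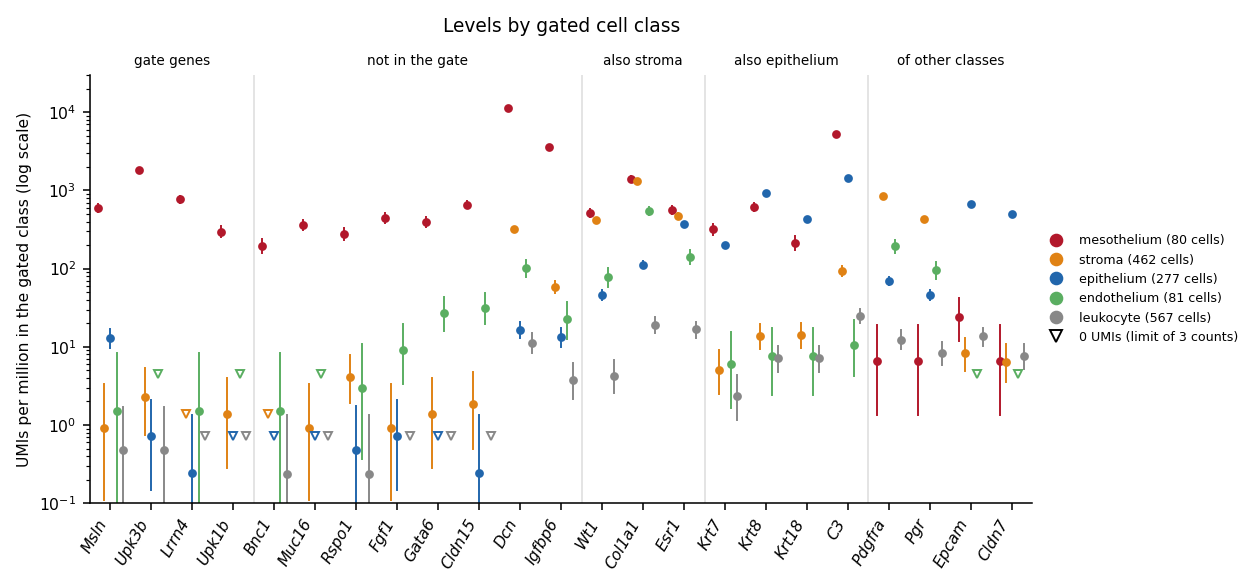
Level in CPM (log axis) of mesothelial and comparison genes in the mesothelium, stroma, epithelium, endothelium and leukocyte gates; bars are exact Poisson 95% intervals and triangles stand at the limit of 3 counts where a class had 0 UMIs. Dcn is at 11182 CPM in the mesothelium gate and 318 CPM in the stroma gate, while Pdgfra is at 6.49 and 854 CPM.

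Promoter sequences of 3 leading genes are shown because most UMIs of these genes lay in the members: Upk3b and Lrrn4 from the gate, and Bnc1, a zinc-finger transcription factor that the gate did not use. Each runs 5' to 3' on the gene's strand from 250 bases before to 50 bases after the start, from RefSeq on GRCm38.p6. The windows are chr5:136038246-136038545 (Upk3b, + strand), chr2:132880813-132881112 (Lrrn4, - strand) and chr7:81992250-81992549 (Bnc1, - strand). Capitals mark the letters GGAATG or, for the opposite strand, CATTCC, the core recognised by TEAD factors.
Upk3b: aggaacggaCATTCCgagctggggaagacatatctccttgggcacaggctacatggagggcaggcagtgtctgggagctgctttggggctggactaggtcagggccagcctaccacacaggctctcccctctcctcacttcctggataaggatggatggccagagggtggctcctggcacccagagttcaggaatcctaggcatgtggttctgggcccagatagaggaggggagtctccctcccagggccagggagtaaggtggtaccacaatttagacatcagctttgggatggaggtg
Lrrn4: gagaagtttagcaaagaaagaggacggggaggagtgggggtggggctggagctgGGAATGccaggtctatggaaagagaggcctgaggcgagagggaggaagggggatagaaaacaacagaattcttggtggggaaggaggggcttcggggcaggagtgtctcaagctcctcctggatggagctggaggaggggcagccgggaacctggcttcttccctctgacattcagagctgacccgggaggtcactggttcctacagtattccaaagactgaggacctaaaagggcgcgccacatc
Bnc1: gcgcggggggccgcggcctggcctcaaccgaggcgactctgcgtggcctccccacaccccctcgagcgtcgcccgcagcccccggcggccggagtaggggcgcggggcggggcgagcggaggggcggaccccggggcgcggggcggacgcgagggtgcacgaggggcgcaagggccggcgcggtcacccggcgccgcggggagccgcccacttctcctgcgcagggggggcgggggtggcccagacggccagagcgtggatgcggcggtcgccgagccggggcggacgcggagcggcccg
The search covered both strands for this core and for AGATAA, the core of the factor family that includes Gata6, which does not overlap it. The 30 leading genes were those of highest ratio to all other barcodes, gate genes included, and 19 of them had a promoter in the table. GGAATG was in 6 of those 19 (31.6%: Upk3b, Lrrn4, Xpnpep2, Ogn, Gpm6a and Cldn15), and in 4817 of all 32851 promoters of the same length (14.7%). AGATAA was in 1 of the 19 (5.26%, Lgals2), and in 3672 of all promoters (11.2%). Upk3b and Lrrn4 belong to the gate, and all leading genes were picked by their values in these data, so the shares are not a test. A match describes letters only.

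At the edge of the gate, the sum of the 4 genes was 4 in the lowest members, 16 at the median and 67 in the highest, and no member stood at 3. The 6 members with a sum of 4 or 5 had 11211 CPM of Dcn, 3123 CPM of Igfbp6 and 512 CPM of Fgf1. The 4 passing barcodes just outside, with a sum of 2, had 4267 CPM of Dcn, 1293 CPM of Igfbp6 and 259 CPM of Fgf1, and the 11 barcodes with a sum of 1 had 253 CPM of Dcn and 0 UMIs of Fgf1. Of 19 barcodes that met the sum but failed the epithelial limit, 17 had 771 CPM of Epcam, 140 CPM of Msln and 0 UMIs of Dcn, and 2 had 18891 CPM of Dcn. One further barcode failed on Ptprc, with 11844 CPM of Dcn.

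Clustering of the passing barcodes placed the 80 members in 1 of 19 Leiden clusters, together with 11 other barcodes of lower depth (median 2761 UMIs). Those 11 held 554 of the 1359 Dcn UMIs outside the members. Leaving them out of the other side raised the Dcn ratio to 197 and moved 15 of 131 named-gene ratios by over 1.5 times. Of the 11, 5 were in the stroma gate. Without them 8 of 85 named-gene ratios to that gate moved by over 1.5 times. That of Ogn rose from 150.0 to 243 and that of Ptgis from 75.5 to 262. A gate with 0 epithelial UMIs, which sends 21 members to the other side, lowered the Dcn ratio to 55.1. It moved 30 of 128 named-gene ratios by over 1.5 times. Dcn kept its call under both, but the size of a large ratio to all other barcodes rests on few UMIs on the other side.

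Marker lists of other lineages were summed in the same way. The epithelial list of 10 genes, 4 of them limited by the gate, summed to 499.6 CPM in members, from 231 UMIs in 70 of the 80 cells, and to 3181 CPM in the epithelium gate, 70.6 CPM in the stroma gate and 114 CPM in the leukocyte gate. Krt7, with 147 UMIs, and Spint2, a protease inhibitor gene with 55, made up most of the members' sum, and Ovol1 was at 0. The smooth muscle list summed to 179.5 CPM in members, 352 CPM in the stroma gate and 118 CPM in the epithelium gate, with Cnn1 and Actg2 at 0. The part of these lists in other results was not tested. The endothelial list summed to 13.0 CPM in members, against 4150 CPM in the endothelium gate, with Cdh5, Tie1 and Flt1 at 0 UMIs. The leukocyte list summed to 19.5 CPM, against 5627 CPM in the leukocyte gate, and the macrophage genes C1qa, C1qb and Adgre1 were at 0. The gland list summed to 192 CPM, against 14339 CPM in the epithelium gate, with Foxa2, Lif and Cxcl15 at 0. Of the 89 gland UMIs, 56 lay in 1 member. The decidual list summed to 396 CPM in members and 1482 CPM in the stroma gate, with Prl8a2 at 0. Epcam had 11 UMIs in 10 members; after thinning to 2000 UMIs per cell it was found in 3.95% of members, 68.4% of the epithelium gate and 2.62% of the leukocyte gate, a type that lacks it. The general stromal list, which holds shared collagens, summed to 6164 CPM in members and 5662 CPM in the stroma gate. Erythroid genes were at 0. Scrublet, a doublet caller, marked 13 of the passing barcodes (0.712%), 1 of them a member.

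A gene that is low elsewhere passes the minimum of 50 UMIs only where members hold it, so counts within a list are descriptions. Over all genes tested against all other barcodes, 1796 of 12190 were higher in the members (14.7%) and 1931 were lower (15.8%), with a median log2 ratio of 0.04. Of the 1931, 588 had 0 UMIs in the members, and for 196 of these 3 counts allow less than a 2-fold difference. Against the stroma gate 918 of 7350 were higher (12.5%) and 1011 lower (13.8%), with a median of -0.04. Against the epithelium gate 1654 of 8462 were higher (19.5%) and 1379 lower (16.3%), with a median of 0.15. The stroma gate used Pdgfra, Col1a1, Col1a2 and Col6a3, so the levels of these genes there are set by that gate. In log2(CPM + 5) across the 12190 genes, the members' profile correlated most with the stroma gate (Pearson r = 0.765), then with endothelium (0.724), epithelium (0.689) and leukocytes (0.562), as a description of classes that share 1 library.

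Mesothelial identity genes outside the gate had the highest median ratio of the 23 lists described. The list was chosen with earlier results of these data known, so its rank and counts are a description only. Of 32 listed genes 26 had enough UMIs to be tested; 23 were higher against all other barcodes and 0 lower, beside 14.7% and 15.8% of all genes, and the median log2 ratio was 3.66. Bnc1, named above, had 90 UMIs in 51 members, 195 CPM, 0 UMIs in the stroma and epithelium gates and a ratio of 924 (306 to 4567) to all other barcodes. That ratio was 94.1 with the gate of 0 epithelial UMIs. After thinning, a Bnc1 UMI was found in 31.6% of members and in 0% of the stroma, epithelium and leukocyte gates. Muc16, the large cell-surface mucin known as CA125, had 366 CPM in members and 0 UMIs in the epithelium gate, with 0, 1 and 8 UMIs in the lowest, median and highest member. Gpm6a, a neuronal membrane glycoprotein gene, had 722 CPM in members, against 1.83 CPM in the stroma gate and 21.1 CPM in the endothelium gate. Wt1, a transcription factor of mesothelium and gonad, had 517 CPM in members and 417 CPM in the stroma gate, a ratio of 1.24 (1.07 to 1.43) that was not called. The ratio of Wt1 to the epithelium gate was 11.2 (9.20 to 13.6). Aldh1a2, which makes retinoic acid, had 205 CPM in members and 140.2 CPM in the stroma gate, and was called only against all other barcodes (2.99, 2.40 to 3.69).

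Keratins separated the members from stroma but not in the same way from epithelium. Krt19 had 841 CPM in members, against 14.2 CPM in the stroma gate and 97.4 CPM in the epithelium gate, and so was 8.64-fold higher (7.50 to 9.96) than in epithelium. Krt7 had 318 CPM in members and 199 CPM in the epithelium gate, a ratio that was not called (1.33 to 1.90). Krt8 had 609.9 CPM in members and 915 CPM in the epithelium gate, also not called. Krt18, its usual filament partner, had 214 CPM in members and 429 CPM in the epithelium gate and lay at the 2-fold limit (fold 1.64 to 2.48 lower), short of it under 5 of the alternatives. Against the stroma gate all 4 keratins were higher, by 15.1-fold (Krt18) to 63.1-fold (Krt7).

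Most of the further genes below had few UMIs outside the members and came from the ranking over all genes or from the identity list. Trdn, which encodes triadin of the muscle calcium-release complex, had 52 UMIs in 23 members and 1 UMI in all other barcodes, or 112 CPM in members against 0.0702 CPM, a ratio of 1602 (275 to 64493). The ratio was 334 with the gate of 0 epithelial UMIs, and after thinning Trdn no longer met the size rule. The galectin genes Lgals7 and Lgals2 had 649 and 149 CPM in members, against 1.12 and 0.351 CPM in all other barcodes. Lgals7 was uneven among members, with 0, 1 and 35 UMIs in the lowest, median and highest cell. Nkain4, a gene for a sodium pump-interacting protein, had 331 CPM in members and 0.772 CPM in all other barcodes. Xpnpep2, a membrane aminopeptidase gene, had 268 CPM in members and 0.772 CPM elsewhere. Stk26, a kinase gene, had 363 CPM in members and 0.458 CPM in the stroma gate. Igfbp6, an IGF-binding protein gene with a preference for IGF2, was in all 80 members with 2, 17 and 81 UMIs in the lowest, median and highest; it had 3582 CPM there and 57.7 CPM in the stroma gate. Crip1, a LIM-domain protein gene with a smaller ratio, had 7131 CPM in members and 243 CPM in all other barcodes (29.4-fold, 28.0 to 30.8).

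**Figure D2:**
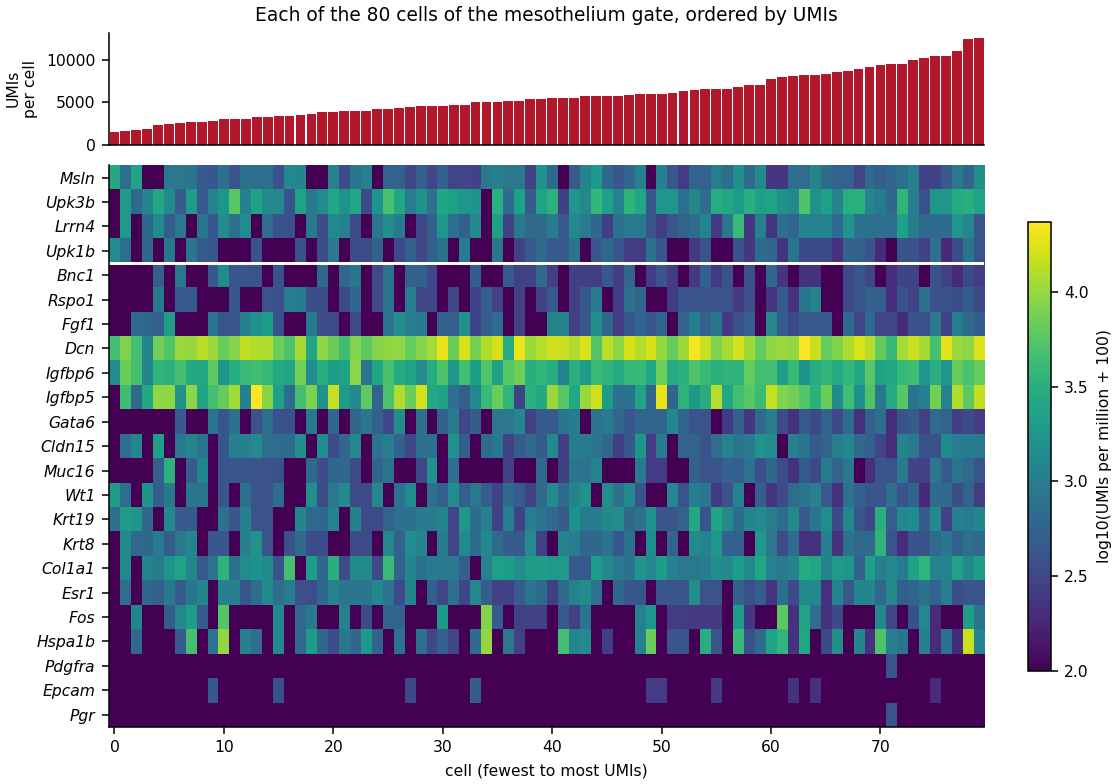
Heat map of log10(CPM + 100) for marker genes (rows) in the 80 members (columns, ordered by total UMIs, drawn as bars on top). Dcn is filled in every cell, while Bnc1 is seen in 51 and Muc16 in 55 of the 80.

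Genes of the apical surface and glycocalyx were mixed: 7 of 20 were higher and 5 lower against all other barcodes, beside 14.7% and 15.8% of all genes. Espn, which bundles the actin of microvilli, had 145 CPM in members and 1.61 CPM in all other barcodes (89.8-fold, 55.2 to 151). Slc9a3r1, the scaffold that ties membrane proteins to ezrin, had 467 CPM in members, 2.75 CPM in the stroma gate and 21.6 CPM in the epithelium gate. Ezr itself, the membrane-actin linker of microvilli, had 601 CPM in members and 549.8 CPM in the epithelium gate and did not meet the size rule there. Podxl, an anti-adhesive sialomucin also made by endothelium, had 305 CPM in members and 768 CPM in the endothelium gate. Cd44, the hyaluronan receptor, had 17.3 CPM in members and 70.3 CPM in all other barcodes (4.06-fold lower, 2.05 to 9.43), a side with many leukocytes. Against the stroma gate its ratio was 0.839 and it was not called.

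Of 37 junction genes, 12 were higher and 10 lower against all other barcodes, beside 14.7% and 15.8% of all genes, with a median log2 ratio of -0.02. Cldn15, a claudin that forms cation-selective pores, had 659.7 CPM in members, against 1.83 CPM in the stroma gate, 0.240 CPM in the epithelium gate and 31.6 CPM in the endothelium gate. The members held 0, 3 and 13 Cldn15 UMIs at the lowest, median and highest. Crb2, an apical polarity gene, had 112 CPM in members and 0 UMIs in the epithelium gate. Cldn7 went the other way, with 6.49 CPM in members and 503 CPM in the epithelium gate (77.5-fold lower, 26.5 to 376). Cdh1, Cldn3 and Cldn4 were limited by the gate and are not compared. Cdh11, the cadherin of mesenchymal cells, had 668 CPM in members, 1488 CPM in the stroma gate and 45.1 CPM in the epithelium gate. Cdh2, the N-cadherin gene often used as a mesothelial marker, had 6 UMIs in 6 members.

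Of 34 matrix genes, 18 were higher and 8 lower against all other barcodes, beside 14.7% and 15.8% of all genes. Against the stroma gate 6 of 32 were higher and 12 lower, beside 12.5% and 13.8%; the higher count is close to the share over all genes. Col1a1, a fibrillar collagen gene that the stroma gate itself used, had 1421 CPM in members and 1333 CPM in the stroma gate. Col3a1 had 2290.4 CPM in members and 1167 CPM in the stroma gate, a ratio of 1.96 (1.82 to 2.11), just short of the 2-fold limit. Members held 0, 7 and 36 Col1a1 UMIs at the lowest, median and highest, and 76 of 80 had at least 1. Small leucine-rich proteoglycans split within the family. Osteoglycin (Ogn) had 1237 CPM in members and 8.25 CPM in the stroma gate, 150.0-fold higher (94.1 to 255), and lumican (Lum) had 649 CPM in members and 50.4 CPM in the stroma gate. Biglycan (Bgn) had 13.0 CPM in members and 368 CPM in the stroma gate, 28.4-fold lower (13.0 to 77.6). Other stromal matrix genes were also lower in members. Dpt, the dermatopontin gene, had 1 UMI (2.16 CPM) in members and 265 CPM in the stroma gate. With the whole Leiden cluster in place of the gate, Dpt was higher, not lower, against all other barcodes (log2 ratio 1.18), so some of its 11 added barcodes carried Dpt. Mmp2, a gelatinase gene, had 6.49 CPM in members and 306 CPM in the stroma gate, and fibronectin (Fn1) had 43.3 CPM in members and 476 CPM in the stroma gate. Of the 20 Fn1 UMIs of the members, 18 were in 1 cell.

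Among basement membrane genes, 7 of 22 were higher and 6 lower against all other barcodes, beside 14.7% and 15.8% of all genes. Nid2, the nidogen that bridges laminin and collagen IV, had 209.8 CPM in members and 18.8 CPM in the stroma gate. Col4a4, a collagen IV chain of specialised membranes, had 58.4 CPM in members and 3.16 CPM in all other barcodes (18.5-fold). The common chain gene Col4a1 had 80.0 CPM in members, against 267 CPM in the stroma gate and 2279 CPM in the endothelium gate. Lama2, a laminin chain gene of mesenchyme and muscle, had 0 UMIs in members and 109 CPM in the stroma gate, at least 16.9-fold lower.

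**Figure D3:**
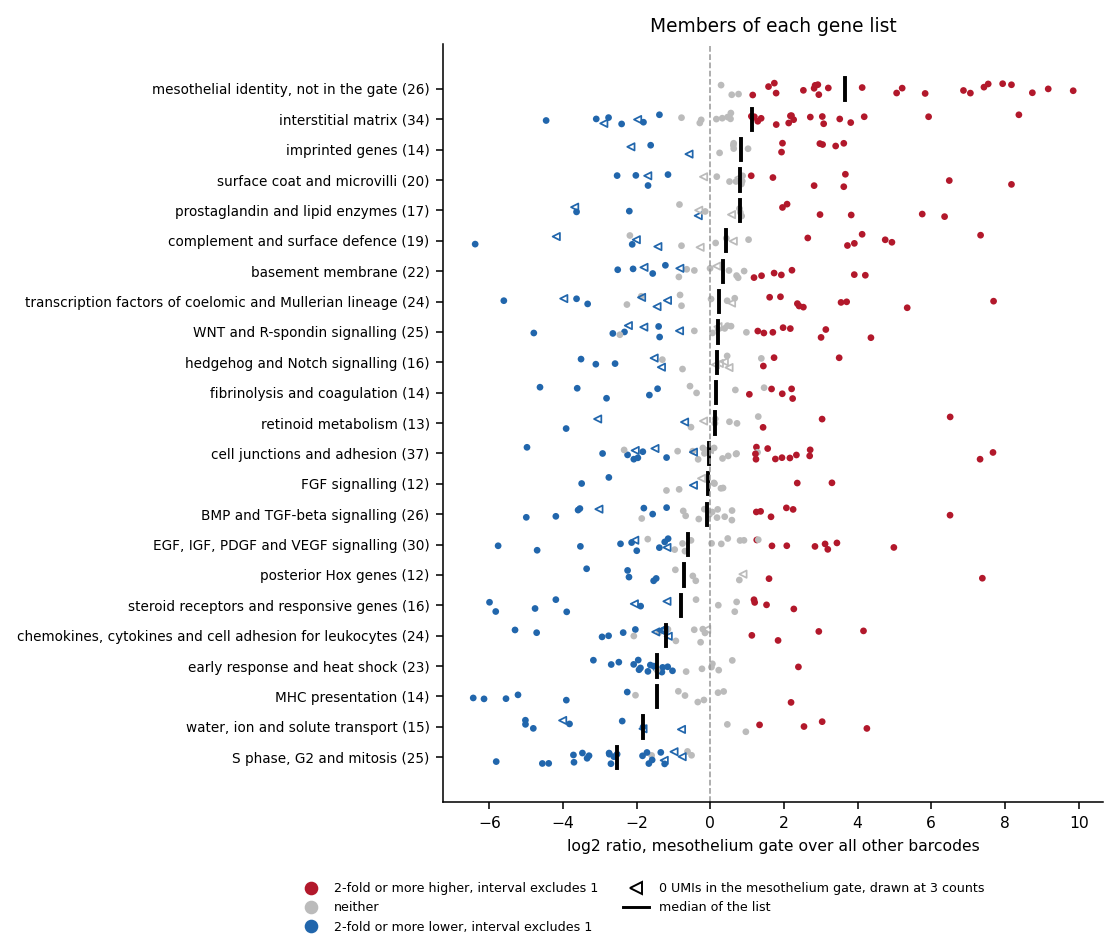
Log2 ratio of members to all other barcodes (horizontal axis) for each tested gene of the gene lists (rows), with list medians as vertical marks; open triangles are genes with 0 UMIs in members, drawn at 3 counts. The identity list has a median of 3.66 and the cell cycle list -2.53.

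In the WNT list 8 of 25 genes were higher and 8 lower against all other barcodes, beside 14.7% and 15.8% of all genes. Beside Rspo1, Rspo3 of the same family had 129.8 CPM in members and 24.3 CPM in the stroma gate. Wnt4, a ligand with a role in the Muellerian duct and in decidualisation, had 201 CPM in members, 61.8 CPM in the stroma gate and 20.9 CPM in the epithelium gate. Wnt5a had 467 CPM in members and 489 CPM in the stroma gate, a ratio of 0.956 (0.822 to 1.11). Sfrp4, a secreted WNT antagonist, had 8.65 CPM in members and 1033 CPM in the stroma gate, 119-fold lower (46.6 to 439).

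Of 12 FGF pathway genes, 2 were higher and 3 lower against all other barcodes, beside 14.7% and 15.8% of all genes. The count of higher genes is near that share, and it leaves out Fgf1, which is on the identity list. Fgf9, a ligand with known mesothelial sources in the embryonic lung, had 209.8 CPM in members, 52.8 CPM in the epithelium gate and 0.458 CPM in the stroma gate. The receptor gene Fgfr2 had 6.49 CPM in members and 180.1 CPM in the epithelium gate. In the BMP and TGF-beta list 6 of 26 were higher and 8 lower, beside the same shares of all genes. Bmp6 had 141 CPM in members and 0.458 CPM in the stroma gate. The BMP antagonist genes Fst and Nog had 8.65 and 6.49 CPM in members, against 1001 and 439 CPM in the stroma gate. The target gene Id2, which BMP signals raise in many cells, had 5 UMIs in members (10.8 CPM) and 198 CPM in all other barcodes.

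In the list of EGF, IGF, PDGF and VEGF signals, 8 of 30 were higher and 11 lower against all other barcodes, beside 14.7% and 15.8%. Against the stroma gate 4 of 22 were higher and 13 lower (median log2 ratio -1.70), beside 12.5% and 13.8%. The genes named here as higher than in that gate are thus not typical of the list. Igf1, the growth factor that mediates much of the uterine response to estrogen, had 2621 CPM in members, 1129 CPM in the stroma gate, and was 27.6-fold higher than in the epithelium gate (24.6 to 31.0). Members held 0, 11 and 67 Igf1 UMIs at the lowest, median and highest, and 76 had at least 1. Igfbp5, an IGF-binding protein gene, had 5290.3 CPM in members and 776 CPM in the stroma gate, with 0, 19 and 178 UMIs at the lowest, median and highest. Gas6, the ligand of the TAM receptors, had 1429.6 CPM in members and 116 CPM in the stroma gate (12.3-fold, 10.6 to 14.3). Pdgfa had 134 CPM in members and 6.41 CPM in the stroma gate. Hbegf, an EGF-family ligand known from the luminal epithelium at implantation, had 2 UMIs in members (4.33 CPM) and 563 CPM in the epithelium gate.

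Pdgfra, the PDGF-A receptor gene that is used to define fibroblasts, had 3 UMIs in members, all in 1 cell, and 854 CPM in the stroma gate. That cell was also the source of all 3 UMIs of Pgr and all 6 of Col15a1, and it was the member that Scrublet marked. The other 79 members had 0 UMIs of Pdgfra. After thinning, Pdgfra was found in 0% of members (upper limit 4.74%), 76.1% of the stroma gate, 6.77% of the epithelium gate and 2.14% of the leukocyte gate. Hedgehog and Notch genes were 3 higher and 5 lower of 16 against all other barcodes, beside 14.7% and 15.8% of all genes. Smo, the hedgehog signal transducer, had 229 CPM in members and 58.2 CPM in the stroma gate. Notch2 had 145 CPM in members and 42.6 CPM in the stroma gate, whereas the Notch target gene Hes1 had 34.6 CPM in members, 481 CPM in the stroma gate and 374 CPM in the epithelium gate.

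C3, which is on the identity list, and several genes of the complement and surface defence list were higher in members than in stroma. Of the 24 genes of that list, 19 were tested against all other barcodes, with 7 higher and 5 lower, beside 14.7% and 15.8% of all genes. Against the epithelium gate 6 of 14 were higher and 6 lower (median log2 ratio -0.31), beside 19.5% and 16.3%. Against the stroma gate 8 passed the minimum of UMIs, some of them through the members alone. Of these 7 were higher and 1 lower, beside 12.5% and 13.8%. C3, the central component (chromosome 17, 57203970 to 57228136, - strand), was found in all 80 members with 1, 25 and 105 UMIs at the lowest, median and highest. It stood at 5312 CPM in members, 1429 CPM in the epithelium gate and 93.5 CPM in the stroma gate. C2, a protease of the classical and lectin pathways, had 727 CPM in members, 7.67 CPM in the epithelium gate and 6.87 CPM in the stroma gate. C1s1 and C1ra, the proteases of the C1 complex, had 846 and 208 CPM in members and 196 and 29.8 CPM in the stroma gate; both have near copies in the mouse genome, so their counts are uncertain. Serping1, the C1 inhibitor, had 1257 CPM in members and 124 CPM in the stroma gate. Lcn2, an iron-scavenging defence gene, had 0 UMIs in members and 228 CPM in the epithelium gate, at least 35.2-fold lower.

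Genes of fibrin turnover and coagulation were 5 higher and 5 lower of 14 against all other barcodes, beside 14.7% and 15.8% of all genes. Anxa2, a cell-surface site for plasmin formation, had 928 CPM in members and 169 CPM in the stroma gate. Thrombomodulin (Thbd), which turns thrombin to an anticoagulant role, had 106 CPM in members, 12.4 CPM in the stroma gate and 260.4 CPM in the endothelium gate. Tissue factor (F3), the trigger of coagulation, had 77.9 CPM in members, 218 CPM in the stroma gate and 2265 CPM in the epithelium gate. The protease inhibitor gene A2m had 17.3 CPM in members and 1149 CPM in the stroma gate.

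Of 14 antigen presentation genes, 1 was higher and 6 lower against all other barcodes, a side that holds many leukocytes, beside 14.7% and 15.8% of all genes. Against the stroma gate 5 passed the minimum of UMIs, of which 5 were higher and 0 lower, beside 12.5% and 13.8% of all genes. H2-K1, a class I heavy chain gene, had 686 CPM in members, 125 CPM in the stroma gate and 593 CPM in the epithelium gate. Tapbp, the peptide-loading chaperone tapasin, had 430.4 CPM in members and 49.9 CPM in the stroma gate. The class II genes Cd74 and H2-Ab1 had 3 and 2 UMIs in members (6.49 and 4.33 CPM), against 459 and 375 CPM in all other barcodes. H2 genes are a family of near copies, so reads may be split or lost between them. In the chemokine and cytokine list 4 of 24 were higher and 11 lower against all other barcodes, beside 14.7% and 15.8% of all genes. Il18 had 86.5 CPM in members and 4.84 CPM in all other barcodes, and Csf1, the macrophage growth factor, had 169 CPM in members, 20.2 CPM in the stroma gate and 171 CPM in the epithelium gate. Cxcl14 had 8.65 CPM in members, 947 CPM in the stroma gate and 555 CPM in the epithelium gate.

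Prostanoid and lipid genes were 6 higher and 4 lower of 17 against all other barcodes, beside 14.7% and 15.8% of all genes. Against the stroma gate they were 8 higher and 1 lower of 11, beside 12.5% and 13.8%. Prostacyclin synthase (Ptgis) had 242 CPM in members, 3.21 CPM in the stroma gate and 0 UMIs in the epithelium gate. Ptgs1, the cyclooxygenase that supplies its substrate, had 169 CPM in members and 3.67 CPM in the stroma gate. Hpgd, which breaks prostaglandins down, had 958 CPM in members and 49.9 CPM in the stroma gate (19.2-fold, 15.5 to 23.9), with 0, 4 and 45 UMIs at the lowest, median and highest. Prostaglandin D synthase Hpgds had 0 UMIs in members and 193 CPM in the epithelium gate.

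In the retinoid list 3 of 13 genes were higher and 3 lower against all other barcodes, beside 14.7% and 15.8% of all genes. Rarres2, a retinoid-responsive gene that encodes chemerin, had 1678 CPM in members, 78.8 CPM in the stroma gate and 0.719 CPM in the epithelium gate. Lrat, which stores retinol as esters, had 0 UMIs in members and 134 CPM in the epithelium gate, and the retinoic acid-degrading enzyme gene Cyp26a1 had 6.49 CPM in members and 223 CPM there. Transport genes were 4 higher and 9 lower of 15, beside the same shares of all genes. Aqp1, the water channel of mesothelium and capillaries, had 255 CPM in members, 12.8 CPM in the stroma gate and 159.5 CPM in the endothelium gate. The lactate carrier gene Slc16a1 had 353 CPM in members and 22.9 CPM in the stroma gate. Aqp5 and the carbonic anhydrase gene Car2 had 2.16 and 13.0 CPM in members and 169 and 591 CPM in the epithelium gate. The caveolar genes Cav1 and Cavin2 had 1166 and 1274 CPM in members, 482 and 595 CPM in the endothelium gate, and 22.9 and 2.75 CPM in the stroma gate.

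Steroid receptors split. Esr1, the estrogen receptor alpha gene, was found in 73 of 80 members with 0, 3 and 12 UMIs at the lowest, median and highest, and had 567 CPM in members, 478 CPM in the stroma gate and 369 CPM in the epithelium gate. Esr1 was not called against the stroma gate (ratio 1.19, 1.03 to 1.36). Pgr, the progesterone receptor gene, had 6.49 CPM in members and 435 CPM in the stroma gate, 67.0-fold lower (22.9 to 325), and 79 members had 0 UMIs. After thinning, Pgr was in 0% of members, 49.9% of the stroma gate, 8.65% of the epithelium gate and 2.14% of the leukocyte gate, whereas Esr1 was in 64.5% of members, 59.4% of the stroma gate, 52.6% of the epithelium gate and 4.05% of the leukocyte gate. In the whole steroid list 4 of 16 were higher and 8 lower against all other barcodes, beside 14.7% and 15.8% of all genes. Hsd11b2, whose product inactivates glucocorticoids, had 1 UMI in members and 778 CPM in the stroma gate. Foxo1, a forkhead factor of decidualising cells, had 285 CPM in members and 54.1 CPM in the stroma gate.

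**Figure D4:**
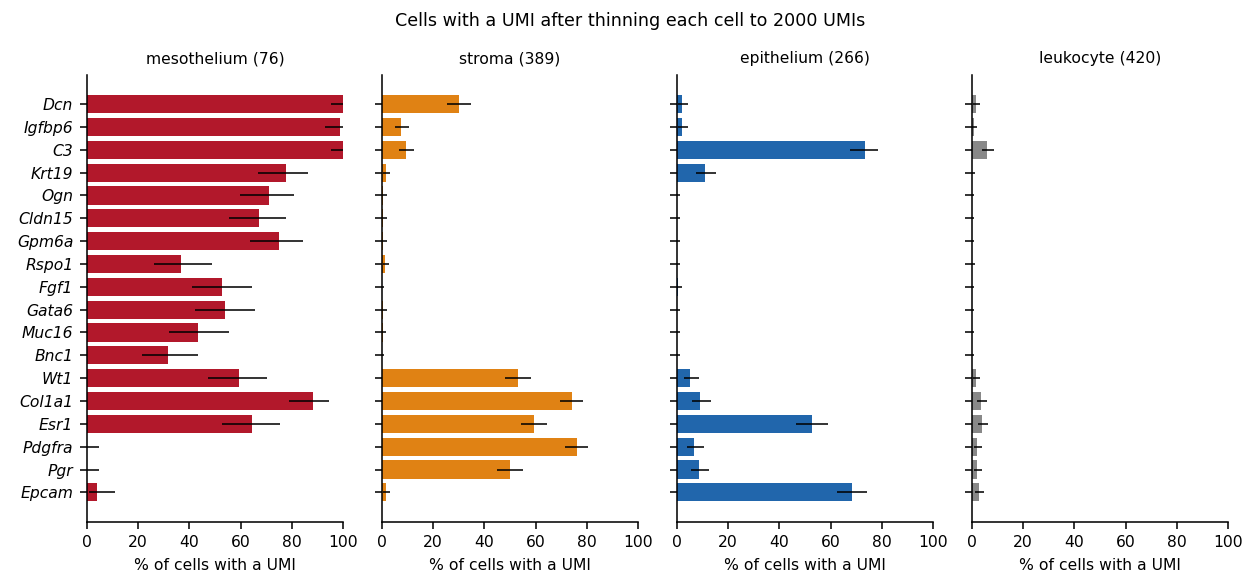
Percent of cells with at least 1 UMI after every cell was thinned to 2000 UMIs, for 76 mesothelial, 389 stromal, 266 epithelial and 420 leukocyte cells; lines are exact binomial 95% intervals. Esr1 is found in 64.5% of mesothelial and 59.4% of stromal cells, but Pgr and Pdgfra in 0% of mesothelial cells and 49.9 and 76.1% of stromal cells.

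Of 24 transcription factor genes of coelomic and Muellerian lineage, 9 were higher and 7 lower against all other barcodes, beside 14.7% and 15.8%. Gata6, a zinc-finger factor of mesoderm and endoderm, had 391 CPM in members, 1.37 CPM in the stroma gate, 27.1 CPM in the endothelium gate and 0 UMIs in the epithelium gate. It was found in 63 members, with 0, 2 and 7 UMIs at the lowest, median and highest. Bnc2, the paralog of Bnc1, had 277 CPM in members and 27.5 CPM in the stroma gate. Pax8, a factor of Muellerian epithelium, had 0 UMIs in members and 246 CPM in the epithelium gate, and the epithelial factor gene Elf3 had 1 UMI (2.16 CPM) in members and 245 CPM in the epithelium gate. In the Hox list 1 of 8 was higher and 6 lower against the stroma gate, beside 12.5% and 13.8% of all genes. Against the epithelium gate 2 of 9 were higher and 3 lower (median log2 ratio 0.01), beside 19.5% and 16.3%. Against all other barcodes 2 of 12 were higher and 5 lower, beside 14.7% and 15.8%. Hoxc6 had 247 CPM in members, 6.41 CPM in the stroma gate and 0.240 CPM in the epithelium gate, with a UMI in 58 members. Some posterior genes that pattern the uterus were lower in members than in the stroma gate. Hoxa10 had 86.5 CPM in members and 1206 CPM in the stroma gate. Hoxa11 had 13.0 CPM in members and 289 CPM in the stroma gate, and its ratio to the epithelium gate was 0.552. Hoxd10 had 19.5 CPM in members and 257 CPM in the stroma gate. The decidual and stromal factor gene Hand2 had 60.6 CPM in members and 324 CPM in the stroma gate.

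Of 25 cell cycle genes tested, 0 were higher and 22 lower against all other barcodes, beside 14.7% and 15.8% of all genes. Their median log2 ratio was -2.53. Against the stroma gate 0 of 7 were higher and 4 lower, beside 12.5% and 13.8%. Mki67 had 1 UMI in the members (2.16 CPM) and 122 CPM in all other barcodes, and Mcm5 likewise had 1 UMI in the members and 51.0 CPM in all other barcodes. Pcna, which is also used in DNA repair, had 75.7 CPM in members and 192 CPM in all other barcodes. Imprinted genes were 6 higher and 3 lower of 14 against all other barcodes, beside 14.7% and 15.8% of all genes. The maternally expressed RNAs Rian and Meg3 had 173 and 443 CPM in members and 57.3 and 183 CPM in the stroma gate. Mest had 0 UMIs in members and 290.5 CPM in the endothelium gate.

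Early response genes, which dissociation is known to induce, were 1 higher and 15 lower of 23 against all other barcodes, beside 14.7% and 15.8%. Against the stroma gate they were 8 higher and 2 lower of 22, beside 12.5% and 13.8% of all genes. Fos had 609.9 CPM in members, 161 CPM in the stroma gate and 1873 CPM in the epithelium gate. Atf3 had 203 CPM in members, 28.9 CPM in the stroma gate and 1064 CPM in the epithelium gate. Klf2, a shear- and quiescence-related factor gene, was the member of the list that was higher against all other barcodes, with 303 CPM in members against 57.7 CPM there. The part of these genes in any other difference was not tested.

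Among the members themselves, 76 cells could be thinned to 2000 UMIs and 573 genes had a mean of at least 0.5 UMIs. The median ratio of variance to mean was 1.24, and 46 genes were over 2. The most variable were Gm42418, a locus that overlaps ribosomal RNA repeats (56.3, with 7 to 330 UMIs per cell), and the nuclear RNA Malat1 (25.7, 18 to 309). Hspa1b, a heat-shock gene with a near-identical copy in Hspa1a, followed at 13.0, with 0 to 39 UMIs and at least 1 in 38 of the 76 cells. Igfbp5 stood at 9.68 with 0 to 42 UMIs, and Fos at 6.39 with 0 to 15 UMIs in 28 cells. Hspa1a, 3 mitochondrial genes (mt-Atp6 at 7.27, mt-Co3 at 5.46 and mt-Co2 at 5.11) and Crip1 (4.91) completed the first 10. The early response list summed to 1089, 3614 and 39604 CPM in the lowest, median and highest member, so cells of the same gate differed widely in it. Apart from Igfbp5 and Crip1, the first 10 were nuclear, ribosomal, mitochondrial, heat-shock or early response genes.

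**Figure D5:**
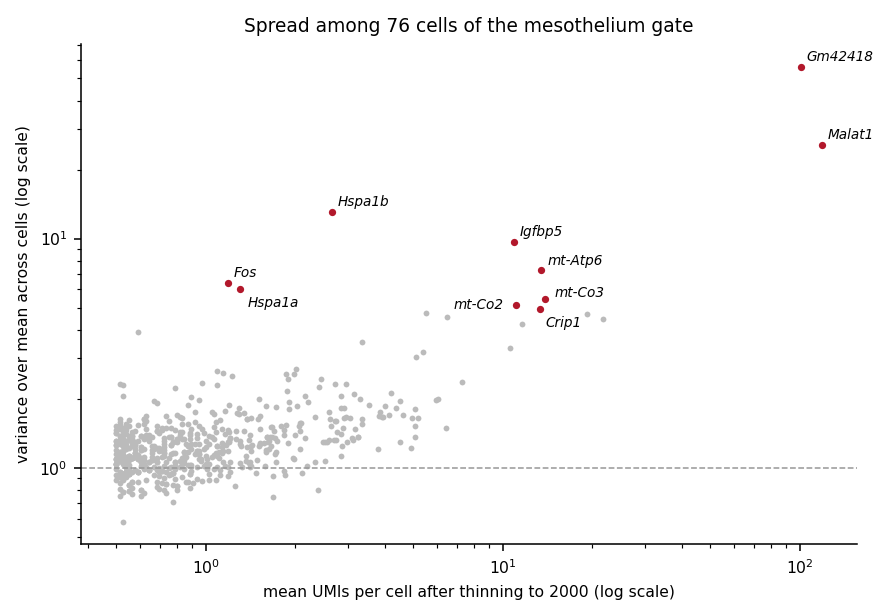
Ratio of variance to mean against the mean of thinned UMIs per cell (both log axes) for 573 genes in 76 members, with the 10 most variable labelled. Most genes lie near the median of 1.24, and Gm42418 (56.3) and Malat1 (25.7) stand highest.

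Hsd11b2, Ctla2a and Ednrb, which are not on the decidual marker list, were among the genes of lowest ratio to the stroma gate. Decidual genes did not all go this way: Wnt4 of that list and Foxo1, both described above, were higher in members. The sum of the decidual list, given above, was lower in members. Against the stroma gate Hsd11b2 was 359.7-fold lower (64.5 to 14214), Ctla2a, a cathepsin inhibitor of decidual stroma, had 47.6 CPM in members and 10536 CPM in the stroma gate (221-fold, 146 to 353), and Ednrb, an endothelin receptor gene, had 0 UMIs in members and 981 CPM in the stroma gate, at least 151-fold lower. The stroma gate holds decidual and other stroma together, and how the members compare with each alone was not tested. Against the epithelium gate the following were among the 10 of lowest ratio. Bcat1, a branched-chain amino acid transaminase gene, had 1 UMI in members (2.16 CPM) and 458 CPM in the epithelium gate, 212-fold lower (37.9 to 8359). Mt4, a metallothionein gene of stratified epithelia, had 2 UMIs in members (4.33 CPM) and 855 CPM in the epithelium gate. Sox9, a transcription factor of gland epithelium, had 1 UMI in members (2.16 CPM) and 262 CPM in the epithelium gate. Against all other barcodes leukocyte genes were among the 10 of lowest ratio: Gzmc, a granzyme gene of uterine natural killer cells, had 2 UMIs in members (4.33 CPM) and 789 CPM in all other barcodes, and Il2rb, the interleukin-2 receptor beta chain gene, had 1 UMI in members (2.16 CPM) and 369 CPM there.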

How the data were processed

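The authors deposited raw UMI counts as a feature-barcode matrix. Per the file headers, Cell Ranger 4.0.0 wrote it; mm10 is the build in the submitters' processing notes. It held 16848794 UMIs over 2775 barcodes and 32287 features; symbols came from the file, gene coordinates from GENCODE M21.

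Computed here (Python 3.11.15, scanpy 1.11.5, scipy 1.17.1): gates, UMI sums per class, CPM with exact Poisson intervals and ratios with exact conditional binomial intervals. Genes with 0 UMIs entered medians, rankings, figures and folds given as "at least" at 3 counts, 6.49 CPM over the members. Calls of higher or lower used the count of 0 itself. Shares of cells were taken after thinning to 2000 UMIs; 4 members, 73 stromal, 11 epithelial and 147 leukocyte cells were shallower and were left out. Doublets were marked by Scrublet and kept in the values reported; leaving them out was an alternative. Calculations were checked on simulated counts.

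The members and the 23 gene lists (600 genes, 597 in the matrix) were chosen with earlier results of these data known. Named genes were the gate and marker genes, up to 2 of highest and 2 of lowest ratio per list, the 10 highest and lowest overall and the 10 most variable; further genes were picked after their values were seen. Alternatives covered gate limits, filters, doublets, depth, weighting and clustering. PCR and capture noise are outside the intervals.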

Additional observations from a re-analysis of the deposited data

Results flagged for a closer look

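The reference that the library was counted on holds 2 added sequences that no comparison above uses, sfGFP-Myc and iCre. Over all barcodes of the library, whose labels give no genotype, there were 25 UMIs of sfGFP-Myc, a signal above the 3 counts that a count of 0 allows, and 1 UMI of iCre. Of the 22 sfGFP-Myc UMIs in barcodes that passed the filter, 0 were in the mesothelial members (limit 6.49 CPM), 9 in the stroma gate, 7 in the endothelium gate, 3 in unclassed barcodes, 2 in the epithelium gate and 1 in the leukocyte gate. Their source was not tested.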

How the results depend on the processing

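No paired analysis was possible because 1 library is analysed. Under 12 alternatives, 11 of them planned, 3724 of 3827 named-gene ratios kept their call, 3480 stayed within the interval first reported, and 2 called ratios changed sign: Mcm5 against the epithelium gate after thinning (log2 0.22), which rests on 1 UMI in members, and Dpt against all other barcodes with the Leiden cluster in place of the gate (1.18). Ratios with 0 UMIs on either side, at first or under the alternative, were left out of this tally. It includes the minimum of 20 UMIs and no minimum, which could not change a ratio or call already made. Each of these gave 0 changed calls of 135 against all other barcodes, 103 against epithelium and 93 against stroma. The member count ran from 59, with 0 epithelial UMIs, to 91. Thinning lowered the counts of higher and lower genes to 886 and 1076 against all other barcodes. They were 427 and 557 against the stroma gate, and 333 and 525 against the epithelium gate. Of the calls against all other barcodes, 695 higher and 885 lower were also made without thinning. Thinning left fewer UMIs and left out shallow barcodes, and the part of each in these counts was not tested. After thinning, 22 of 106 named calls against all other barcodes differed. With the mean of per-cell CPM, 3295 genes were lower against all other barcodes. Calls there used the 2-fold limit and the minimum of UMIs without an interval. The parts of the weighting and of the missing interval in this count were not tested. A minimum of 20 UMIs in place of 50 gave 1435 genes higher than the stroma gate; with no minimum there were 1909 against stroma and 3120 against epithelium, as more genes of few UMIs were tested. Leaving the 11 other barcodes of the cluster out of the other side was chosen after seeing the data. Depth limits genes at 0 UMIs in members to under 6.49 CPM, and with 1 library no difference has a replicate.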
